A study of Mus musculus with 14 samples.

Results

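The SOCS family consists of 8 genes in the mouse, Cish and Socs1 to Socs7, which encode inhibitors of cytokine and growth hormone signalling. All 8 were taken by name and found among the 27179 genes counted in cultured keratinocytes and the 24411 genes quantified in newborn epidermis. The family was selected on the level of Socs2, which differed between the genotypes in these libraries, so the differences between genotypes in the 8 genes are given as a description. Where the fit across all genes called or did not call a SOCS gene, that is stated and nothing is read from it. Each family protein has a central SH2 domain, which binds phosphorylated tyrosines of receptors or kinases, and a C-terminal SOCS box, which recruits a ubiquitin ligase of elongins B and C and a cullin. Cytokine receptors act through JAK kinases and STAT transcription factors, and STATs switch on Cish, Socs1, Socs2 and Socs3, so that these genes form a negative feedback loop. In skin, SOCS1 and SOCS3 are known as brakes on interferon and interleukin-6 type signals, and SOCS2 is best known for restraining growth hormone, since mice that lack it grow larger than normal.

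The study compared a p63beta genotype, KRT14-Cre with Trp63-Ex13fl/fl, with a p63alpha genotype, Trp63-Ex13fl/fl without Cre. Trp63 encodes p63, the master transcription factor of stratified epithelia. Loss of exon 13 turns its alpha ending, the longest C-terminus, into the shorter beta ending. Both groups carry the floxed alleles, and only the p63beta mice carry the Cre transgene, so effects of Cre itself and of the exon loss cannot be told apart. The KRT14 promoter drives Cre in basal keratinocytes, so other cells of the epidermis keep exon 13. All material was from newborn mice. Proliferating primary keratinocytes grown in low-calcium medium gave 3 p63beta and 3 p63alpha libraries, and epidermis gave 4 p63beta and 4 p63alpha libraries. Nothing in the labels says that the libraries came from separate animals, so p-values measure only the spread between these libraries.

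The keratinocyte libraries held 20688027 to 30066041 counted read pairs and the epidermis libraries 21290068 to 44909629 estimated counts. In epidermis, transcripts with exon 13 and the alpha ending made up 11.7% of Trp63 TPM (transcript abundance scaled to length and depth) in p63beta library KO2 and 2.15% to 2.91% in the other 3 p63beta libraries, against 80.8% to 85.5% in the 4 p63alpha libraries. The annotation did not set the beta transcript apart, so its ending was inferred from its length. Its estimated length was 90 to 91 bases below that of an alpha transcript, near the 94 bases of exon 13. The keratinocyte table gives no transcripts, so the exon could not be checked there. Counted over all exons, Trp63 stood at 343, 358 and 390.5 CPM (counts scaled to library size) in p63beta keratinocytes, against 193, 179 and 179 CPM in p63alpha keratinocytes, and at 545 to 765 CPM in p63beta and 259 to 631 CPM in p63alpha epidermis. Keratinocyte markers were abundant in every library, with Krt5 at 12363 to 17767 CPM in p63beta keratinocytes and 12326 to 20013 CPM in p63alpha keratinocytes. In epidermis Krt5 stood at 3377 to 8784 CPM in p63beta and 4464 to 7716 CPM in p63alpha libraries. Of the keratinocyte libraries, p63beta 3 stood apart in summed heart and skeletal muscle markers, at 3853 CPM over 14 genes against 116 to 304 CPM in the other 5. It was also highest in summed markers of fibroblasts, at 244 CPM against 41.6 to 172 CPM. The same held for adipocytes, at 26.1 CPM against 0.476 to 1.38 CPM, and endothelium, at 45.4 CPM against 9.92 to 18.0 CPM. Summed leukocyte and melanocyte markers were not highest in p63beta 3.

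The promoters are shown for the feedback inhibitors Socs1 and Socs3, because STAT and interferon elements spelled out below occur in them. The RefSeq promoter table (GRCm38.p6) matched 4 of the 8 genes, Cish, Socs1, Socs3 and Socs4. Each sequence gives the 250 bases before the start, 5′ to 3′ on the minus strand, at chr16:10785537-10785786 for Socs1 and chr11:117969367-117969616 for Socs3. Capitals mark in Socs1 an interferon response element, GAAA followed by any 2 bases and GAAA, and in Socs3 the STAT palindrome TTCNNNGAA, where N is any base.
Socs1: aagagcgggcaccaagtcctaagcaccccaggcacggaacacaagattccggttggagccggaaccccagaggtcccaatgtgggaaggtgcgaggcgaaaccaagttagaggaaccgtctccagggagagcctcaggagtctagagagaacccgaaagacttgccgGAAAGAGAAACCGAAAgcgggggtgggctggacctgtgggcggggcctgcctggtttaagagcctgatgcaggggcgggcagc
Socs3: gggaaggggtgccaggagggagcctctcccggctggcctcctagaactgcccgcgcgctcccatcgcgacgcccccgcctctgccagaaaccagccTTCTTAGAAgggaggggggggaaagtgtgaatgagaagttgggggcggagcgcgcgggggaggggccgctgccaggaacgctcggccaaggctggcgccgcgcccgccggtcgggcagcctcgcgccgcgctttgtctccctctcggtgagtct
The Socs1 window held the interferon element in 2 overlapping copies that begin 83 and 77 bases before the start. The Socs3 window held TTCNNNGAA in 1 copy that begins 154 bases before the start. Neither element was found in the windows of Cish and Socs4. Searched on both strands over 32851 mouse promoter windows of this length, TTCNNNGAA occurred in 7.02% and the interferon element in 2.98%, and a match describes the letters only.

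Levels of the family were compared between genes only per transcript length, as the authors' FPKM (fragments scaled to gene length and library size) in keratinocytes. In p63beta keratinocytes Socs6 stood highest at 20.8 ± 0.671 FPKM (mean ± SD, n = 3), ahead of Socs5 at 17.4 ± 1.76 FPKM. Cish at 12.5 ± 1.16 FPKM and Socs4 at 12.15 ± 1.10 FPKM came next, and their libraries overlapped. Socs7 at 7.34 ± 0.594 FPKM and Socs2 at 7.32 ± 1.87 FPKM also overlapped, and Socs3 at 3.15 ± 1.29 FPKM overlapped with Socs1 at 2.2 ± 0.73 FPKM. The p63alpha keratinocytes kept Socs6 at 24.65 ± 0.336 FPKM and Socs5 at 16.6 ± 3.43 FPKM on top. Below them, Socs4 at 12.7 ± 0.975 and Cish at 11.3 ± 0.912 FPKM overlapped. Socs7 at 7.01 ± 0.492 FPKM stood clear of its neighbours, followed by Socs3 at 3.09 ± 0.934 FPKM and Socs1 at 1.52 ± 1.09 FPKM, which overlapped. Socs2 was last at 0.858 ± 0.148 FPKM, overlapping with Socs1. Socs2 was thus the sixth of the 8 genes in p63beta keratinocytes and the lowest in p63alpha keratinocytes.

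Epidermis had another order, given here as the authors' TPM and not set against the FPKM of keratinocytes, since the tables were made separately. In p63beta epidermis Socs2 averaged 46.1 ± 36.7 TPM (SD, n = 4) and Cish 36.6 ± 17.3 TPM, followed by Socs3 at 20.7 ± 7.66 TPM. Socs6 at 17.0 ± 4.19 TPM, Socs5 at 12.5 ± 3.93 TPM, Socs4 at 6.43 ± 1.75 TPM and Socs7 at 6.04 ± 0.560 TPM came after them. Each of these 7 overlapped with its neighbour, and Socs1 at 3.28 ± 0.198 TPM was below all libraries of Socs7. In p63alpha epidermis Cish led with 40.7 ± 4.70 TPM and stood clear of Socs3 at 18.2 ± 7.25 TPM. Socs2 at 17.8 ± 16.5 TPM, Socs6 at 17.2 ± 3.86 TPM, Socs5 at 11.4 ± 3.87 TPM, Socs4 at 7.52 ± 1.32 TPM and Socs7 at 6.94 ± 1.93 TPM followed, each overlapping with the gene before it. Socs1 was again the lowest, at 2.86 ± 0.857 TPM, below every library of Socs7.

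**Figure D1:**
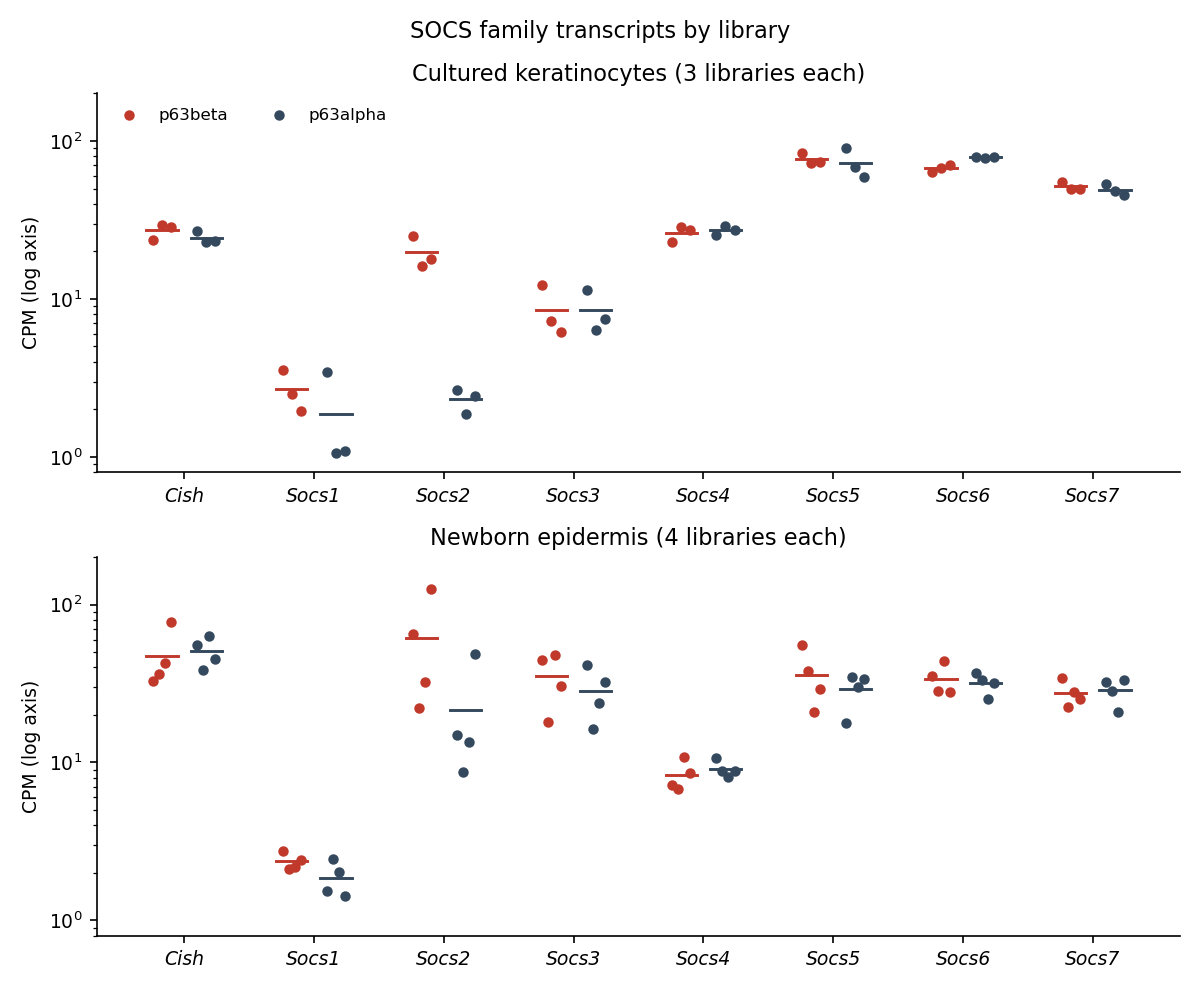
CPM of each SOCS family gene on a log axis, in keratinocytes (top, 3 libraries per genotype) and epidermis (bottom, 4 per genotype). Points are libraries and short lines are means, with p63beta left of p63alpha for each gene. Socs2 is the gene whose points separate widely in keratinocytes, at 16.3 to 24.9 CPM in p63beta against 1.86 to 2.66 CPM in p63alpha libraries.

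Socs2 was higher in p63beta than in p63alpha keratinocytes, where it was the lowest member per length. Its protein acts on growth hormone receptor signalling, and its 198 codons make it the shortest of the family. The gene lies at chr10:95411490-95416857 on the minus strand of mm10. Socs2 stood at 24.9, 16.3 and 18.0 CPM in p63beta libraries 1 to 3, from 704, 411 and 513 read pairs, against 2.66, 1.86 and 2.43 CPM in p63alpha libraries 1 to 3, from 64, 56 and 51 read pairs. All p63beta libraries were above all p63alpha libraries, and the spread within each genotype was small beside the gap between them. The fold was 8.52 (log2 fold change 3.09 ± 0.24 SE). Fewer cells with the transcript and less transcript per cell cannot be told apart in these bulk libraries. Between same-numbered libraries the log2 ratio was 3.23, 3.13 and 2.89. In the authors' deposited table Socs2 has a shrunken log2 fold change of 2.15 in keratinocytes. The library with many muscle transcripts, p63beta 3, was the middle one for Socs2, and the log2 fold change was 3.14 without it.

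Across all genes of the keratinocytes, edgeR's quasi-likelihood test called 14 of 13820 at an adjusted p under 0.05, or 0.101%, of which 13 (0.0941%) were higher and 1 (0.00724%) lower in p63beta cells. Socs2 was the 1 gene of the family among them, which follows from how the family was picked. With the replicate number as a block 37 genes were called, Socs2 again among them. Each of the 6 fits on 5 libraries left Socs2 uncalled, whichever library was missing, although its log2 fold change stayed between 2.89 and 3.21. Groups did not overlap in 12.3% of all genes tested, 6.51% with p63beta higher and 5.8% with p63beta lower. In the family this held for Socs2, with p63beta higher, and for Socs6, with p63beta lower. The median log2 fold change was 0.07 over the 8 genes and -0.0014 over all genes tested, and 6 of the 8 were above 0, against 49.7% of all genes.

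Cish, the founding member, is induced by STAT5 and damps signals of the erythropoietin, prolactin and interleukin-2 receptors. It lies at chr9:107296689-107301961 on the plus strand and encodes 257 codons. Its level was 23.7, 29.3 and 28.6 CPM in p63beta libraries 1 to 3, against 27.1, 22.9 and 23.4 CPM in p63alpha libraries 1 to 3. The genotypes overlapped, and the log2 fold change was 0.15 ± 0.12 (SE). The part of STAT5 in the levels of Cish and Socs2 was not tested.

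Socs1 and Socs3 bind JAK kinases directly and block them through a short kinase inhibitory region that the other members lack. Socs1, with 212 codons at chr16:10783808-10785536 on the minus strand, stood at 3.57, 2.50 and 1.96 CPM in p63beta libraries 1 to 3, against 3.45, 1.06 and 1.09 CPM in p63alpha libraries 1 to 3. The genotypes overlapped through the first library of p63alpha, with a log2 fold change of 0.52 ± 0.55 (SE) over all 6 libraries and 1.29 without that library. Socs3, with 225 codons at chr11:117966079-117969366 on the minus strand, stood at 12.3, 7.25 and 6.17 CPM in p63beta libraries 1 to 3, against 11.5, 6.37 and 7.52 CPM in p63alpha libraries 1 to 3. Its genotypes overlapped fully, and its log2 fold change was 0.02 ± 0.34 (SE). With 1 library left out the value lay between -0.33 and 0.28, and it was below 0 without p63beta 1, p63alpha 2 or p63alpha 3.

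Both JAK-binding members were highest in library 1 of each genotype. Summed markers of leukocytes, over 11 genes, were highest in the same libraries, at 79.9 CPM in p63beta 1 and 8.995 to 28.5 CPM in p63beta 2 and 3, against 99.3 CPM in p63alpha 1 and 13.7 to 29.6 CPM in p63alpha 2 and 3. Of these sums, the leukocyte marker Lyz2 alone held 42.5 CPM in p63beta 1 and 47.3 CPM in p63alpha 1. Cd3e, a T cell gene, was at or below 0.357 CPM in all 6 libraries. Library 1 of each genotype also had the lowest summed keratinocyte markers, at 24674 CPM in p63beta 1 and 25400 CPM in p63alpha 1. The part of other cells in Socs1 and Socs3 was not tested.

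Socs4 and Socs5 restrain epidermal growth factor receptor signalling, whereas Socs6 and Socs7 bind insulin receptor substrates and Socs6 also KIT. These are the longer members, of 436 to 579 codons. Socs4 (chr14:47277143-47291591, plus strand) stood at 23.1, 28.6 and 27.1 CPM in p63beta libraries and 25.4, 29.1 and 27.2 CPM in p63alpha libraries. For Socs5 (chr17:87107679-87137585, plus strand) the values were 83.5, 72.8 and 73.9 CPM in p63beta libraries and 91.0, 68.1 and 59.5 CPM in p63alpha libraries. Socs7 (chr11:97362551-97398542, plus strand) stood at 54.9, 50.05 and 49.7 CPM in p63beta libraries and 53.8, 48.0 and 45.6 CPM in p63alpha libraries. The genotypes overlapped in all 3 genes, and their log2 fold changes were -0.05 ± 0.11, 0.07 ± 0.17 and 0.07 ± 0.09 (SE).

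Socs6 was the exception among the longer members. It stood at 63.3, 67.2 and 70.8 CPM in p63beta libraries 1 to 3, against 79.7, 78.4 and 79.1 CPM in p63alpha libraries 1 to 3. Every p63beta library was below every p63alpha library, and the p63alpha libraries were almost level with each other. The fold was 0.849, a log2 fold change of -0.24 ± 0.07 (SE), far smaller than that of Socs2. The gene was not among those called across all genes.

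**Figure D2:**
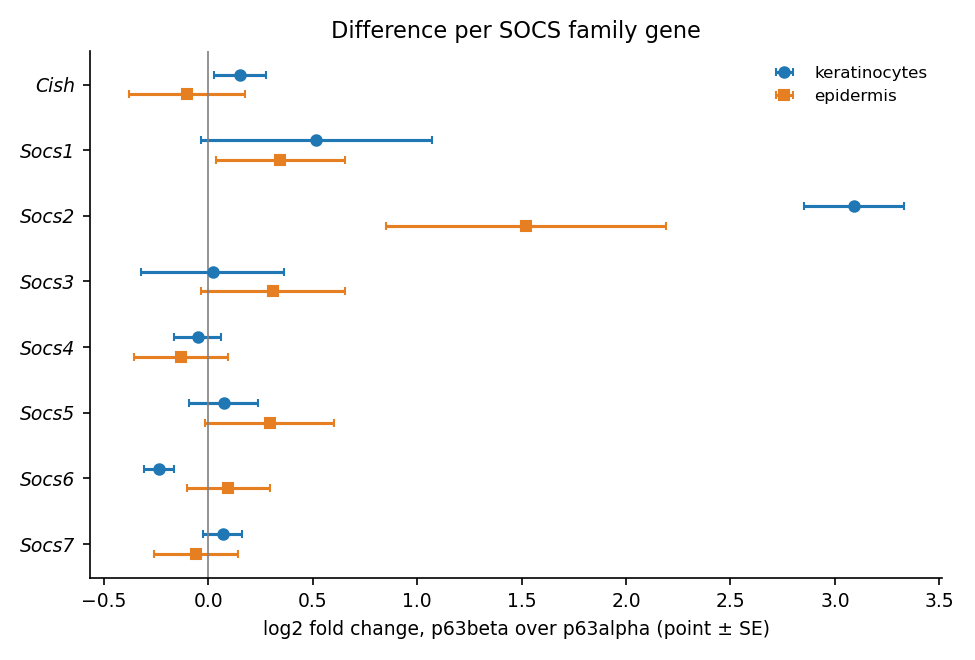
Log2 fold change of p63beta over p63alpha for each SOCS family gene (horizontal axis), with bars of 1 SE, for keratinocytes (circles) and epidermis (squares). Socs2 lies farthest to the right in both, at 3.09 in keratinocytes and 1.52 in epidermis, and its bar is widest in epidermis.

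In epidermis, Socs2 was on average higher in p63beta than in p63alpha libraries, but it varied widely within each genotype. It stood at 65.0 CPM in KO2, 22.3 in EP10, 32.1 in EP11 and 126 in EP12, the p63beta libraries, against 14.9 CPM in EP07, 8.68 in EP08, 48.3 in EP09 and 13.5 in WT3, the p63alpha libraries. The genotypes overlapped through EP09 alone, which was above EP10 and EP11. The means were 61.2 ± 46.6 CPM in p63beta and 21.4 ± 18.2 CPM in p63alpha epidermis (SD, n = 4 each), a fold of 2.87 and a log2 fold change of 1.52 ± 0.67 (SE). Without EP09 it was 2.30 ± 0.56, without EP12 it was 0.90 ± 0.61, and without KO2, the p63beta library that kept the most alpha ending, it was 1.48 ± 0.74. In EP09 the alpha ending made up 85.5% of Trp63 TPM, the highest share of all libraries, and in EP12 2.15%, the lowest. The authors' deposited DESeq2 comparison of the same libraries gives a log2 fold change of 1.52 for Socs2 in epidermis, with an adjusted p of 0.812.

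The epidermis columns carry either the prefix 02HZ (3 libraries per genotype) or another prefix (1 per genotype, KO2 and WT3), and the labels do not give their meaning. Within 02HZ the mean of Socs2 was 59.98 CPM in p63beta and 24.0 CPM in p63alpha libraries, a log2 ratio of 1.32. Between KO2 and WT3 it was 65.0 CPM in p63beta and 13.5 CPM in p63alpha, a log2 ratio of 2.26 with no replicate. By mean level Socs2 was thus higher in p63beta within both prefixes, but within 02HZ the genotypes overlapped, with EP09 above EP10 and EP11. A fit to the 02HZ libraries alone gave a log2 fold change of 1.32 ± 0.85 (SE), and Socs2 was not called in it.

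Across all genes of the epidermis 32 of 13796 were called, or 0.232% (0.217% higher and 0.0145% lower in p63beta), and 0 of the 8 SOCS genes. In the same edgeR fit 1 of the 8, Socs2, on which the family was selected, had an unadjusted p under 0.05, from which nothing is read, and DESeq2 and limma also called 0 of the 8. Groups did not overlap in 3.07% of all genes, 1.88% with p63beta higher and 1.19% with p63beta lower, and in 0 of the 8. The median log2 fold change was 0.20 over the 8 genes and -0.004 over all genes, and 5 of the 8 were above 0, against 49.3% of all genes.

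The Socs2 signal in epidermis could be split over 4 annotated transcripts of the same 198 codons, which differ in their first exon. The most upstream first exon ends at chr10:95416857, and the others begin 645, 1373 and 1574 bases downstream of that start. The most upstream start made up 68.7% of Socs2 TPM in KO2, 56.9% in EP10, 59.9% in EP11 and 56.1% in EP12, against 34.3% in EP07, 68.2% in EP08, 94.2% in EP09 and 66.4% in WT3. The p63beta libraries lay close together and within the wide range of the p63alpha libraries. The fourth, most downstream start, a short transcript of 2 exons, made up 21.8% to 32.0% in p63beta libraries and 29.5% to 31.8% in EP07, EP08 and WT3. It was listed at 0 in EP09, the p63alpha library with the highest Socs2. The second start reached at most 11.1% in p63beta and 10.9% in p63alpha libraries, and the third at most 6.04% in p63beta and 25.2% in p63alpha libraries. These shares are estimates, since the transcripts share most of their sequence.

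**Figure D3:**
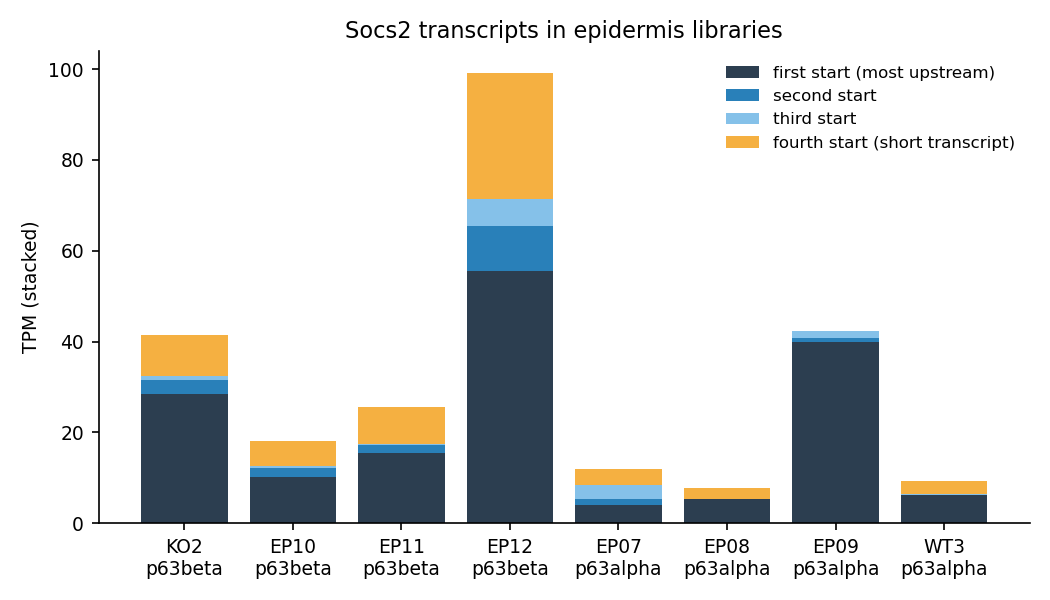
Socs2 TPM in each epidermis library, stacked by transcript start, with the 4 p63beta libraries left of the 4 p63alpha libraries. The most upstream start is the largest part of every bar, EP12 is the tallest bar, and EP09 lacks the fourth start.

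Marker genes of other cells differed between the epidermis libraries as well. The 3 libraries with the highest Socs2 were also the 3 with the highest Hba-a1, an alpha globin gene of red blood cells. Hba-a1 stood at 60.2 CPM in KO2, 12.4 in EP10, 21.7 in EP11 and 72.6 in EP12, against 32.0 CPM in EP07, 22.9 in EP08, 53.6 in EP09 and 24.6 in WT3. The other 3 red cell markers together reached at most 1.69 CPM, Hbb-bs was at 0 in all 8 libraries, and Hba-a1 has a near-identical copy with which it may share reads. Summed markers of leukocytes were 48.8 to 173 CPM in p63beta and 84.9 to 150 CPM in p63alpha libraries. They were highest in EP12 and EP09 but lowest in KO2. Summed melanocyte markers were 317 to 478 CPM in p63beta libraries and 120 to 267 CPM in p63alpha libraries, with no overlap between genotypes. In keratinocytes the same melanocyte sum was 823 to 1011 CPM in p63beta libraries and 453 to 1617 CPM in p63alpha libraries. The part of these cells in the epidermal Socs2 level was not tested. Red cell markers summed to at most 1.70 CPM in 5 of the 6 keratinocyte libraries, and to 19.0 CPM in p63beta 3.

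**Figure D4:**
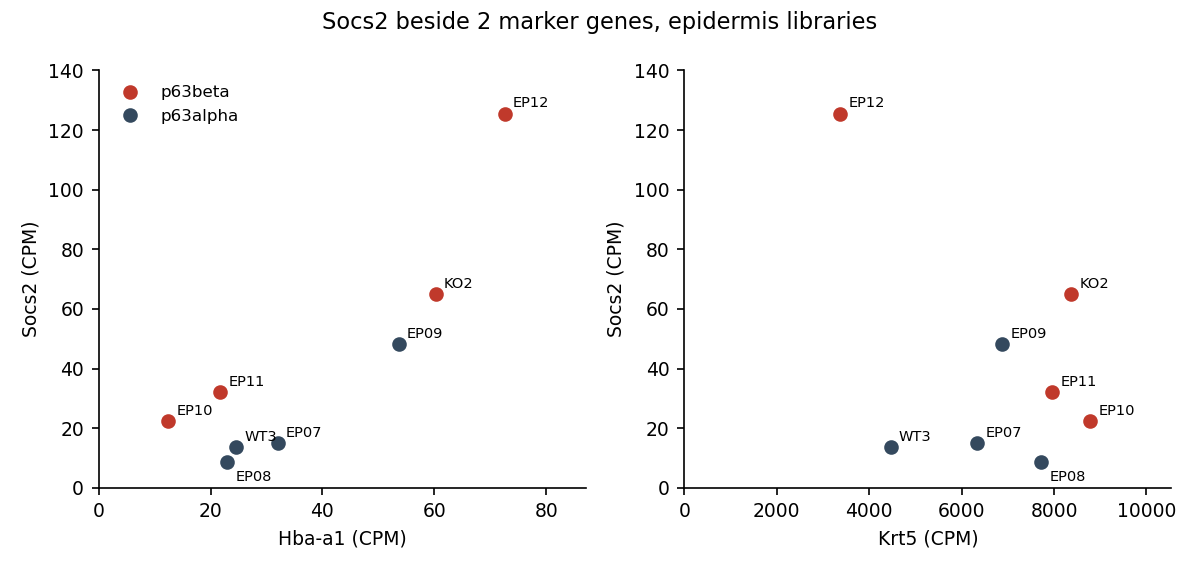
Socs2 CPM (vertical axis) against CPM of Hba-a1 (left) and Krt5 (right) in the 8 epidermis libraries, p63beta and p63alpha in separate colours. EP12, KO2 and EP09 lie apart at the top right of the Hba-a1 panel, and EP12 has the lowest Krt5 at 3377 CPM.

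Cish in epidermis stood at 32.8 CPM in KO2, 36.2 in EP10, 42.8 in EP11 and 77.1 in EP12, against 55.8 CPM in EP07, 38.3 in EP08, 44.98 in EP09 and 63.2 in WT3. The genotypes overlapped, with a log2 fold change of -0.10 ± 0.28 (SE). EP12 was the highest library for both Cish and Socs2, whereas EP09, high in Socs2, was in the middle for Cish. With 1 library left out it lay between -0.45, without EP12, and 0.03, without KO2. Within the 02HZ libraries the log2 ratio of Cish was 0.17, and between KO2 and WT3 it was -0.95.

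Socs1 and Socs3 did not separate the genotypes in epidermis. Socs1 stood at 2.77 CPM in KO2, 2.12 in EP10, 2.16 in EP11 and 2.42 in EP12, against 1.53 CPM in EP07, 2.44 in EP08, 1.43 in EP09 and 2.04 in WT3. The overlap came through EP08, and the log2 fold change was 0.35 ± 0.31 (SE). Socs3 stood at 44.7 CPM in KO2, 18.2 in EP10, 47.7 in EP11 and 30.4 in EP12, against 41.5 CPM in EP07, 16.2 in EP08, 32.4 in EP09 and 23.8 in WT3. The genotypes overlapped over nearly the whole range, with a log2 fold change of 0.31 ± 0.35 (SE).

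The remaining members also overlapped in epidermis. Socs4 ranged over 6.76 to 10.8 CPM in p63beta and 8.09 to 10.7 CPM in p63alpha libraries, and Socs5 over 20.9 to 55.2 CPM in p63beta and 17.7 to 35.0 CPM in p63alpha libraries. Socs6 ranged over 27.9 to 44.2 CPM in p63beta and 25.4 to 37.0 CPM in p63alpha libraries, and Socs7 over 22.6 to 34.3 CPM in p63beta and 20.95 to 33.2 CPM in p63alpha libraries. Their log2 fold changes were -0.13 ± 0.23 for Socs4, 0.29 ± 0.31 for Socs5, 0.10 ± 0.20 for Socs6 and -0.06 ± 0.20 for Socs7 (SE). Socs6, lower in every p63beta library of keratinocytes, thus showed no such order in epidermis.

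The genes most like Socs2 were sought over all 14 libraries, each given as log2(CPM + 1) minus the mean of the p63alpha libraries of its kind, by the mean absolute difference from Socs2. Among 12245 genes tested in both kinds of sample, Pgm2l1 was nearest with a mean absolute difference of 0.41, against a median of 1.24 over all genes. Socs2 was picked for its difference between genotypes, and all genes were centred on the p63alpha mean. Genes raised in p63beta therefore lie nearer to Socs2 than unchanged genes do, so the nearness is only a description. Pgm2l1 makes glucose 1,6-bisphosphate. Cbs, the cystathionine beta-synthase of the transsulfuration pathway, followed at 0.64 and Cbr2, a carbonyl reductase, at 0.66. The RAS-like GTPase gene Diras2 followed at 0.67, and Art3, of the ADP-ribosyltransferase family, at 0.68. In EP09 the difference from the p63alpha mean was 1.44 for Socs2, 0.98 for Pgm2l1 and 0.53 for Cbr2, but 0.19 for Diras2 and 0.22 for Art3. In EP10, where the same difference was 0.35 for Socs2, it was higher for all 5 genes, at 1.196 for Pgm2l1, 1.77 for Cbs, 1.05 for Cbr2, 2.003 for Diras2 and 1.03 for Art3. The genes nearest to Cish were Atrnl1 at 0.11, Gng12 at 0.11 and B3gntl1 at 0.12, with a median of 0.33 over all genes.

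**Figure D5:**
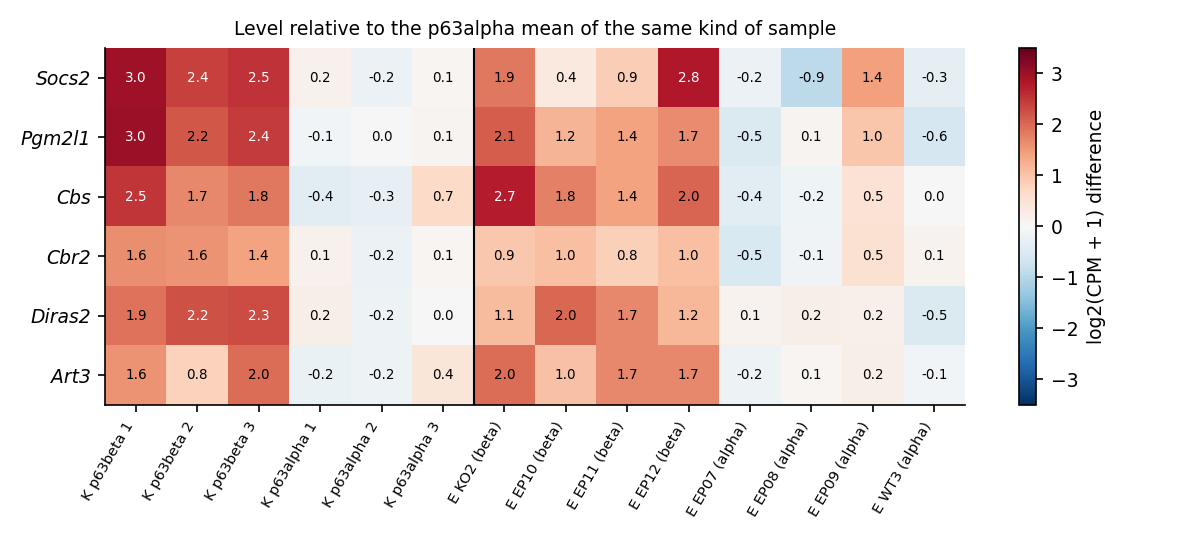
Difference of log2(CPM + 1) from the p63alpha mean of the same kind of sample, for Socs2 and the 5 genes with the most similar pattern, with keratinocyte libraries (K) left of the line and epidermis libraries (E) right of it. Socs2 ranges from -0.91 in EP08 to 2.97 in keratinocyte library p63beta 1, and EP09 is the p63alpha library in which it is raised, by 1.44.

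The pathway around the family was read from 10 lists of ligands, receptors, kinases, partners and response genes, none of which had a called gene in either kind of sample. The list of interferon response genes is counted in these totals and not described further. Over all lists 0 of 116 genes tested in keratinocytes were called by edgeR, with 10 at an unadjusted p under 0.05, against 6.85% of all genes tested. DESeq2 called 4 of the list genes (Il7, Il15ra, Pim3 and Ube2f), of 211 called among 19912 genes, and limma 0. With the replicate block 1 gene of the lists was called in keratinocytes, Bst2, an interferon-induced membrane protein gene picked out after its values were seen, with an adjusted p of 0.0431 against 0.857 without the block. In epidermis 0 of 116 genes tested were called by edgeR, with 7 at an unadjusted p under 0.05, against 4.64% of all genes tested. DESeq2 called 1 of them, Id1, of 152 called among 18182 genes, and limma 0. Adjusted p-values below are from edgeR over all genes tested in that kind of sample. A lack of overlap between genotypes is given per gene as a description. It held for 12.3% of all genes tested in keratinocytes and for 3.07% in epidermis.

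Among the cytokine and hormone ligands, 10 of 32 were tested in keratinocytes, 8 of them with a log2 fold change above 0 and a median of 0.34. Il7, which signals through JAK1, JAK3 and STAT5, stood at 2.22 ± 0.198 CPM in p63beta and 0.464 ± 0.135 CPM in p63alpha keratinocytes (SD, n = 3 each), with no overlap. Its log2 fold change was 2.25 ± 0.33 (SE, adjusted p = 0.144). Csf3, the granulocyte growth factor gene, had 12.6 ± 5.55 CPM in p63beta and 5.14 ± 4.95 CPM in p63alpha keratinocytes, a log2 fold change of 1.29 ± 0.70 (SE, adjusted p = 0.813). In epidermis 6 ligand genes were tested, all 6 above 0 with a median of 0.22, and the 2 of lowest p were Clcf1 at 0.98 ± 0.49 and Cntf at 0.56 ± 0.37 (log2 fold change ± SE).

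Of 32 receptor genes 24 were tested in keratinocytes, 12 of them above 0, with a median log2 fold change of 0.01. Il15ra, which presents interleukin-15 to a JAK-coupled receptor, stood at 10.7 ± 1.03 CPM in p63beta and 5.77 ± 1.42 CPM in p63alpha keratinocytes, with no overlap, and had a log2 fold change of 0.89 ± 0.22 (SE, adjusted p = 0.447). Cntfr, the receptor subunit for ciliary neurotrophic factor, stood at 25.2 ± 0.460 CPM in p63beta and 31.7 ± 3.34 CPM in p63alpha keratinocytes, also with no overlap. Its log2 fold change was -0.33 ± 0.10 (SE, adjusted p = 0.577). In epidermis 29 receptors were tested, 13 of them above 0 with a median of -0.06. The 2 of lowest p were Il10ra at -0.86 ± 0.37 and Il20rb, a subunit of receptors for the interleukin-20 family, at -0.55 ± 0.25 (log2 fold change ± SE).

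All 11 JAK and STAT genes were tested in both kinds of sample. In keratinocytes 3 were above 0 with a median log2 fold change of -0.09, and Stat3 at -0.18 ± 0.08 and Stat6 at -0.21 ± 0.10 (SE) had the lowest p. Stat3 had no overlap between genotypes there, while Stat6 overlapped. In epidermis 5 were above 0 with a median of -0.07, and Jak1 at -0.29 ± 0.16 and Stat2 at -0.54 ± 0.22 (SE) had the lowest p. The adjusted p of these 4 genes was 0.740 or more.

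Receptor tyrosine kinases on which SOCS proteins act were tested for 6 of 7 genes in each kind of sample. In keratinocytes 3 were above 0, with a median log2 fold change of -0.01. Erbb2, the partner of the epidermal growth factor receptor, stood at 113 ± 2.46 CPM in p63beta and 145 ± 16.3 CPM in p63alpha keratinocytes, with no overlap, and had a log2 fold change of -0.36 ± 0.10 (SE, adjusted p = 0.470). Met, the receptor of hepatocyte growth factor, had a log2 fold change of 0.34 ± 0.27 (SE, adjusted p = 0.908). In epidermis 5 were above 0 with a median of 0.19, and Kit at 0.46 ± 0.22 and Insr at 0.24 ± 0.25 (log2 fold change ± SE) had the lowest p. Kit, which Socs6 binds, is also made by melanocytes, whose summed markers were higher in every p63beta library of the epidermis, and their part in it was not tested.

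All 9 partners of the SOCS box were tested. In keratinocytes 0 of the 9 were above 0, with a median log2 fold change of -0.04. Ube2f, the NEDD8-conjugating enzyme that activates cullin-5, stood at 73.1 ± 1.52 CPM in p63beta and 87.4 ± 0.924 CPM in p63alpha keratinocytes, with no overlap (log2 fold change -0.26 ± 0.06 SE, adjusted p = 0.424). Elob, which encodes elongin B, had a log2 fold change of -0.12 ± 0.07 (SE, adjusted p = 0.848), also with no overlap. In epidermis 7 of the 9 were above 0 with a median of 0.13. Ube2f there was at 0.19 ± 0.15 and Eloc, the elongin C gene, at 0.17 ± 0.16 (log2 fold change ± SE).

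Other inhibitors of the pathway, the PIAS proteins, phosphatases, CBL ligases and USP18, were all tested. In keratinocytes 5 of 12 were above 0 with a median log2 fold change of -0.05. Cblb was at 0.30 ± 0.12 (SE, adjusted p = 0.710) and Pias3 at 0.28 ± 0.13 (SE, adjusted p = 0.739). Both genes had no overlap between genotypes, but only narrowly. The lowest p63beta library had 38.71 CPM of Cblb and 18.43 CPM of Pias3, against 38.62 and 18.37 CPM in the highest p63alpha library. In epidermis 6 of 12 were above 0 with a median of -0.03, and Usp18 was at 1.25 ± 0.74 and Cblb at 0.22 ± 0.21 (SE). Of 10 genes for insulin receptor substrates and growth hormone effects, 6 were above 0 in each kind of sample, with medians of 0.03 in keratinocytes and 0.05 in epidermis. Irs2 was at 0.23 ± 0.11 and Grb10 at -0.37 ± 0.15 in keratinocytes, and Igf1 at -1.65 ± 0.66 and Igfbp3 at 0.98 ± 0.50 in epidermis (log2 fold change ± SE). Igf1, the main target of growth hormone in liver, stood at only 0.411 ± 0.128 CPM in p63beta and 1.31 ± 1.28 CPM in p63alpha epidermis.

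STAT5 response genes were above 0 in 6 of 9 tested in keratinocytes, with a median log2 fold change of 0.10, and in 9 of 10 in epidermis, with a median of 0.25. In keratinocytes Ccnd2, a D-type cyclin gene, was at 0.55 ± 0.18 (SE, adjusted p = 0.612), and Bcl2l1, which encodes the survival protein BCL-XL, at -0.14 ± 0.08 (SE, adjusted p = 0.794). Bcl2l1 had no overlap between genotypes there, while Ccnd2 overlapped. In epidermis Id1, an inhibitor of differentiation, stood at 37.5 ± 8.98 CPM in p63beta and 18.9 ± 6.06 CPM in p63alpha libraries, with no overlap (log2 fold change 0.98 ± 0.26 SE, adjusted p = 0.347). Ccnd3 stood at 164 ± 28.8 CPM in p63beta and 117 ± 18.9 CPM in p63alpha epidermis, also with no overlap (log2 fold change 0.49 ± 0.18 SE, adjusted p = 0.820).

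STAT3 response genes were above 0 in 5 of 14 tested in keratinocytes, with a median log2 fold change of -0.10, and in 10 of 13 in epidermis, with a median of 0.17. Pim3, a survival kinase gene, stood at 76.5 ± 2.06 CPM in p63beta and 93.1 ± 0.565 CPM in p63alpha keratinocytes, with no overlap (log2 fold change -0.28 ± 0.06 SE, adjusted p = 0.360), while Hif1a was at 0.17 ± 0.11 (SE). In epidermis Myc stood at 176 ± 32.4 CPM in p63beta and 115 ± 28.6 CPM in p63alpha libraries, with no overlap (log2 fold change 0.61 ± 0.20 SE, adjusted p = 0.726). S100a9, an antimicrobial protein gene of inflamed skin, was at 2.30 ± 1.09 (SE), with 0.346 to 33.0 CPM in p63beta and 0.401 to 7.06 CPM in p63alpha libraries.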

How the data were processed

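RNA of cultured keratinocytes (3 p63beta and 3 p63alpha libraries) and of epidermis (4 p63beta and 4 p63alpha libraries) was sequenced from stranded mRNA libraries, per the labels' protocols. The authors' keratinocyte values are deposited as read-pair counts per gene on mm10, made by featureCounts 1.5.2 with strand setting 2 and a minimum overlap of 25 bases, per the file headers, and as deposited FPKM. For epidermis the authors deposited expected counts and TPM per gene and per transcript. The submitters' processing notes name STAR and featureCounts for keratinocytes and Salmon for epidermis, with no version of Salmon in the sources used here. Log2 fold changes and adjusted p-values of the authors' own comparison are also deposited, and 14 columns of normalised values in those tables were not used.

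Expected counts were rounded to whole numbers. Epidermis columns named WT and KO were read as p63alpha and p63beta, as in the keratinocyte headers. The authors' epidermis comparison is headed WT against KO, and its sign was read from the values as p63beta over p63alpha. No 2 libraries held identical values (0 pairs). Keratinocytes and epidermis were fitted separately in edgeR 4.0.16 (R 4.3.3): TMM, filterByExpr by group, robust quasi-likelihood F test, Benjamini-Hochberg adjustment over all genes tested, call at an adjusted p under 0.05. The fit was tested on simulated data. CPM use TMM-scaled totals. Genes are named by rule: all 8 members, the 2 genes of lowest p per list and kind of sample, the first genes of marker lists and the genes most like Socs2 and Cish. One list is not reported here on its own. Members and lists were chosen with earlier results of these data known. Genes were joined between tables by Entrez ID (23357).

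In keratinocytes same-numbered libraries deviated together from their group means, with correlations of 0.64, 0.53 and 0.32 over 10351 genes with a mean of at least 5 CPM, so the replicate number was used as a block in an alternative fit. Other alternatives were RLE size factors, no filter, no robust estimation, DESeq2 1.42.0, limma 3.58.1 on log2(FPKM + 1) or log2(TPM + 1), a term for the column prefix, and leaving out each library. A fit to the 02HZ libraries alone was added after seeing the data.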

Additional observations from a re-analysis of the deposited data

Results flagged for a closer look

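Socs2 in p63alpha epidermis library EP09 was far from the other 3 p63alpha libraries, at 48.3 CPM against 8.68 to 14.9 CPM. Its gap to the nearest library was 0.84 of the group's range in CPM, above Dixon's critical value for 4 libraries. As log2(CPM + 1) minus the p63alpha mean, EP09 stood at 1.44 and the other 3 at -0.91 to -0.19. The gap is a smaller part of the range on that scale, to which the rule was not applied. In all, 16 groups of 4 libraries were tested (8 genes in 2 genotypes). Chance alone marks about 1 in 20 such groups if their values are normally distributed, which was not tested. EP09 had an alpha ending share of 85.5% of Trp63 TPM, in the range of its genotype, a most upstream Socs2 start at 94.2% of Socs2 TPM, and 53.6 CPM of Hba-a1. The part of other cells in this value was not tested.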

How the results depend on the processing

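The number of genes called in keratinocytes was 14, and 211 with DESeq2, 37 with the replicate block (the pairing of same-numbered libraries; 13 of the 14 genes remained among them) and 1 to 4 with 1 library left out. In epidermis it was 32, and 152 with DESeq2, 8 in the 02HZ libraries alone and 10 to 28 with 1 library left out. The other alternatives gave 11 to 14 calls in keratinocytes and 25 to 38 in epidermis. The cause of these differences was not tested, and fits with libraries left out also rest on fewer libraries. No paired analysis was possible in epidermis because its columns carry no replicate number. The block changed no call of a SOCS gene. Values under alternatives were set beside each gene's SD of log2(CPM + 1) within genotypes, pooled over the 2 genotypes. This SD is wide for variable genes, at 1.05 for Socs2 in epidermis. Log2 fold changes of 0.90 to 2.30 for that gene thus count as within 1 SD. Of 216 values of the 8 genes under alternatives, 214 stayed within 1 SD of the reported value. The exceptions were Socs1 in keratinocytes without p63alpha 1 (log2 fold change 1.29) and Socs2 in keratinocytes with limma on log2(FPKM + 1), which understates low genes (2.14). The sign differed in 17 of the 216, none of them of a called value (0). Limma on log2(TPM + 1) moved the median of all genes in epidermis to -0.09. Low depth limits Socs1 (23 to 101 read pairs in keratinocytes) most.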
